A study of Oryza sativa Japonica Group with 12 samples.

Results

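The genes described here are the RelA/SpoT homologues (RSH) of rice (Oryza sativa, Japonica group), and above all CRSH2, a gene for a calcium-activated enzyme that makes ppGpp. They were taken as every gene of the platform annotation with the symbol or synonym CRSH1, CRSH2, CRSH3, RSH1, RSH2 or RSH3. All 6 genes were found, with 1 probe set each, among the 17905 genes of probe sets that the annotation gives to a single gene. Probe sets that name several genes were not searched. The family was chosen because CRSH2 is among the named genes with the largest rise between the leaves of wild-type plants. The wild-type leaf difference of CRSH2 is therefore described here and not tested.

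Transcript levels were measured on 12 arrays with 1 linear signal per probe set, and array medians ran from 50.8 to 56.5. Transgenic plants over-expressing the microRNA miR156 (OE), from the independent lines Md15, Md43 and Mh9 (replicates 1, 2 and 3), were compared with 3 wild-type plants (WT1, WT2 and WT3). From each plant at 45 days came leaf 6 (L6), a young leaf, and leaf 3 (L3), an old leaf, both numbered by emergence on the main tiller. The groups are thus OE_L6, OE_L3, WT_L6 and WT_L3 with 3 arrays each. The labels also record a transfer of the plants, with the same number of days for all 12 arrays, so the groups do not differ in it. The OE plants had been selected on hygromycin and the labels name no transformed control, so over-expression and transformation cannot be told apart. The promoter of the transgene is not given in the sources used here. Leaf age and leaf position changed together and cannot be told apart either. In whole leaves, fewer cells that hold a transcript and less of it per cell cannot be told apart.

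The nucleotide ppGpp is the alarm signal of the bacterial stringent response, made from GTP or GDP and ATP by RelA and SpoT. Plants keep such enzymes in the chloroplast, where ppGpp acts on plastid transcription, translation and GTP synthesis. CRSH proteins carry calcium-binding EF-hands beside the synthetase domain, and the rice enzymes make ppGpp only with calcium. In Arabidopsis, RSH1 acts mainly in removing ppGpp, RSH2 and RSH3 make most of it in the light, and CRSH makes it after the shift to darkness. In the gene table of assembly ASM3414082v1 the 3 CRSH genes lie near each other on chromosome 5. Counting protein-coding genes only, CRSH2 and CRSH3 are direct neighbours and 1 gene, LOC4337889, lies between CRSH1 and CRSH2. RSH1, RSH2 and RSH3 lie on chromosomes 3, 8 and 9.

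The 6 genes behaved differently between the leaves. CRSH2 was the only member that passed the test as higher in the young leaf, while RSH3 and RSH2 passed as lower there, and CRSH1 and RSH1 did not pass. The calls of CRSH2 and RSH2 were lost in some of the alternatives given below, while those of RSH3 held in all. CRSH3 was too dim for the test. No member passed between OE and WT in either leaf, where the tests of CRSH2 use the WT arrays that entered its choice. Among the 5 members that entered the fit (limma, Benjamini-Hochberg adjustment over 34316 probe sets, threshold 0.05), 1 was higher and 2 were lower in OE_L6 than in OE_L3. Of all probe sets in that comparison 42.1% were called, 18.9% as higher and 23.2% as lower, so a call between the leaves is common on these arrays.

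**Figure D1:**
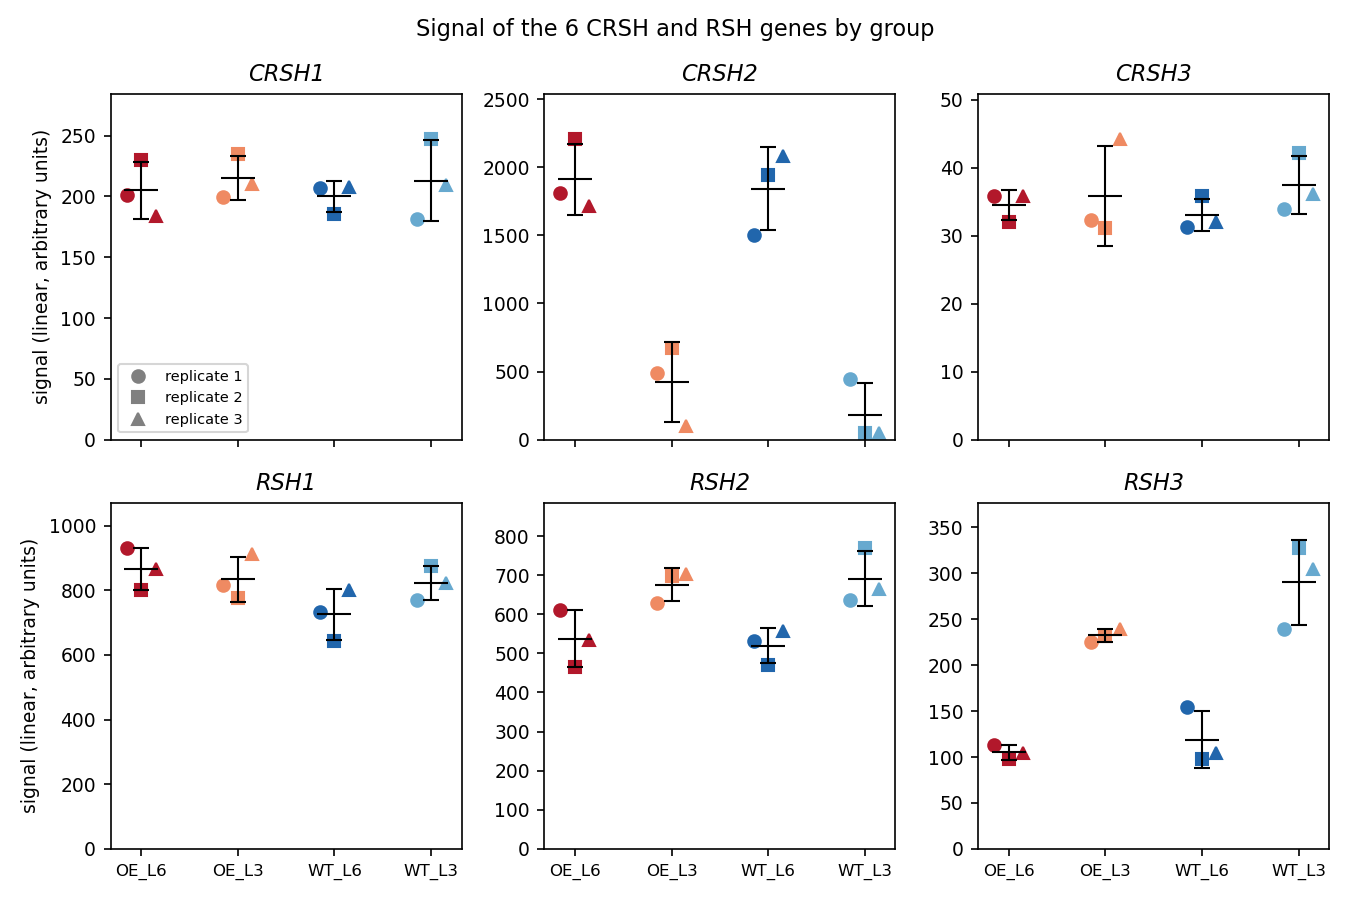
Linear signal (y axis, arbitrary units, starting at 0) of the 6 genes in the 4 groups (x axis). Points are single arrays, with the marker giving the replicate number, and the bar and whiskers are the mean and SD of 3 arrays, with the whisker of CRSH2 in WT_L3 stopped at 0. CRSH2 lies at 1505 or more on all 6 L6 arrays and at 674 or less on all 6 L3 arrays, while RSH3 lies lower on every L6 array than on every L3 array.

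CRSH2 (LOC4337890) was strong in the young leaf of both genotypes. Its probe set has an identifier of another form than those of the other members, and which strand its probes read was not checked, so each CRSH2 signal is that of this probe set. Its signal was 1810, 2210 and 1716 in OE_L6 replicates 1 to 3, against 488, 674 and 99.9 in OE_L3. All 3 young leaves lay above all 3 old leaves, as for 29.8% of all probe sets in OE. In WT_L6 the signal was 1505, 1943 and 2082, against 449, 50.8 and 50.8 in WT_L3, again without overlap, as for 26.3% of all probe sets in WT. These L6 levels exceed those of 97.2% to 98.6% of the probe sets on the same array. The 2 lowest old leaves, WT_L3 replicates 2 and 3, lie at the middle of their arrays, above 49.4% and 50.0% of the probe sets.

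The leaf difference of CRSH2 in OE was 2.48 on the log2(signal + 16) scale (SE 0.77, 95% interval 0.76 to 4.20, limma adjusted p = 0.0275), or 5.59-fold. The OE arrays are not in the WT contrast that brought CRSH2 forward, but other results of these data were known by then. The SE, interval and p come from the fit of all groups, so they also use the WT arrays. With the OE arrays alone the SE was 0.64 (limma adjusted p = 0.0257). In WT the leaf difference was 3.85 (SE 0.77), or 14.4-fold, given as a description. Only 0.219% of probe sets had a larger rise in OE. Both differences understate the change of the dim arrays because of the added 16. The OE call rested on few arrays. It was lost without OE_L3 replicate 3, the dimmest of its group, where the difference was 1.70 (adjusted p = 0.101), and without OE_L6 replicate 1, 2 or 3 (adjusted p = 0.0600, 0.0755 and 0.0570, differences 2.52, 2.37 and 2.56).

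Plant by plant, the young leaf always held more CRSH2 than the old leaf of the same plant, but the ratio varied widely. L6 over L3 was 3.71, 3.28 and 17.2 in OE replicates 1 to 3. It was 3.35, 38.2 and 41.0 in WT1, WT2 and WT3. Each OE replicate is another transgenic line, so line and plant cannot be told apart in OE. The spread came from the old leaves, since the highest and lowest L6 signals of a group differed only 1.29-fold in OE and 1.38-fold in WT, while those of L3 differed 6.75-fold in OE and 8.84-fold in WT. The SD of log2 values in WT_L3 was 1.62, and 1.49% of probe sets had a larger one there. In OE_L3 it was 1.37, exceeded by 1.29% of probe sets.

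The uneven old leaves also differed across the whole array. A leaf score was computed from 34311 probe sets without the CRSH and RSH genes, with 0 for the mean L3 and 1 for the mean L6 of the other genotype. It was 0.254, 0.211 and -0.224 in OE_L3 replicates 1 to 3, and 0.382, -0.286 and -0.266 in WT_L3. The 3 old leaves with a score above 0 had CRSH2 signals of 449 to 674, and the 3 below 0 had signals of 50.8 to 99.9. The young leaves scored 0.878 to 1.02 in OE_L6 and 0.915 to 1.11 in WT_L6. This is a description of 12 arrays that share a processing, with no test.

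**Figure D2:**
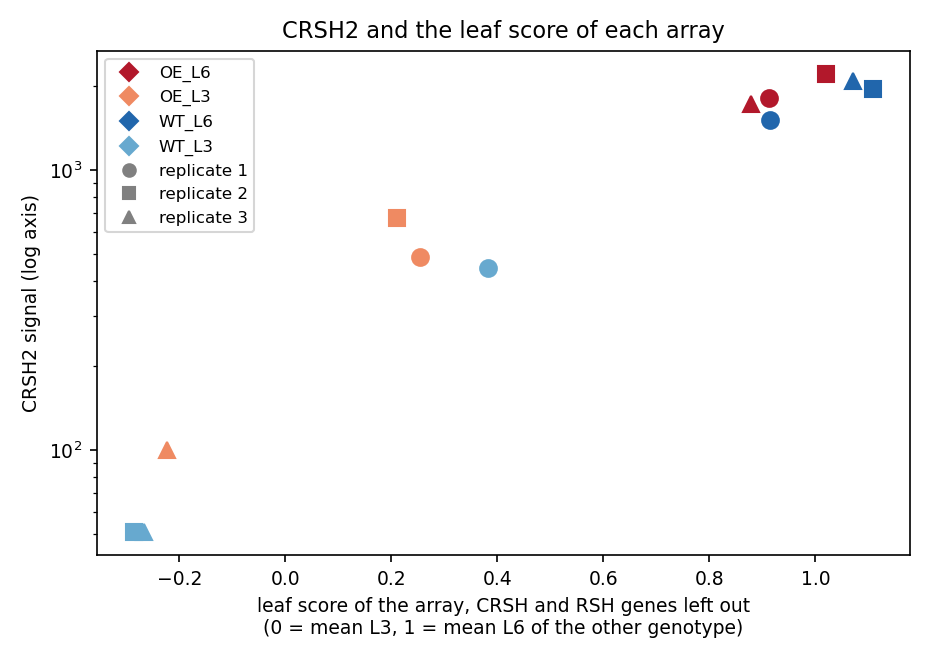
CRSH2 signal (y axis, log scale) against the leaf score of each array (x axis, 0 for the mean L3 and 1 for the mean L6 of the other genotype). Colours give the group and markers the replicate. The 6 L6 arrays sit together at the top right, and the 6 L3 arrays spread from 50.8 at a score of -0.286 to 674 at 0.211.

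Markers of dividing cells were also uneven among these old leaves. Their summed signal over 10 genes (cyclins, a B-type cyclin-dependent kinase, PCNA and MCM replication proteins) was 1773, 2186 and 557 in OE_L3 replicates 1 to 3, and 3141, 588 and 606 in WT_L3. It ran from 3541 to 4791 in OE_L6 and from 2407 to 4939 in WT_L6, so WT_L3 replicate 1 lay within the range of WT_L6. Of the 10 genes, 9 entered the fit, and 1 passed as higher in OE_L6 than in OE_L3 (MCM3, adjusted p = 0.0479), and 6 in WT_L6 than in WT_L3. Of all probe sets, 18.9% passed as higher in OE and 23.9% in WT. None was at 0, and 1 of the 2 genes with the synonym CYCB1-1 was too dim for the fit. The part of dividing cells in the CRSH2 differences was not tested. The meristem markers OSH1, OSH6 and OSH71 were too dim for the fit, and the summed signal of 7 meristem genes ran from 277 to 354 over all arrays. The leaf markers RBCS, RCA and CAB2R were bright on all arrays (group means of 2910 to 12949), while the group means of the RBCS1 probe set were 7.88 to 10.8. Of 6 markers of ageing leaves, summed to 2681 to 3781 in OE_L6, 4334 to 5061 in OE_L3, 2747 to 3650 in WT_L6 and 4151 to 5140 in WT_L3, 5 entered the fit and 2 passed as lower in OE_L6 than in OE_L3 (RCCR1 and SGR, of chlorophyll breakdown). In WT, 3 passed as lower and 1 as higher, NOL (log2 0.43, limma adjusted p = 0.0409). NOL had the same direction in OE without passing (log2 0.37, limma adjusted p = 0.0700), and NYC1 passed in neither genotype. Of all probe sets, 23.2% passed as lower in OE and 23.9% in WT.

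CRSH2 did not pass the test between OE and WT in either leaf. In the old leaf the signal averaged 421 ± 293 in OE_L3 and 183 ± 230 in WT_L3 (SD, n = 3 each). The groups overlapped, since WT_L3 replicate 1 lay above OE_L3 replicate 3. The difference was 1.43 on the log2 scale (SE 0.77, 95% interval -0.29 to 3.15, limma adjusted p = 1.00), where 0.119% of all probe sets were called. These comparisons share the WT arrays that brought CRSH2 forward, and CRSH2 was chosen for its rise between them. Their p values are therefore read neither as a genotype effect on CRSH2 nor as the lack of one. The old-leaf value moved with single arrays. It was 2.36 without WT_L3 replicate 1, 2.21 without OE_L3 replicate 3 and 0.92 without OE_L3 replicate 2, none passing. Array quality weights changed the weight of every array and were lowest for WT_L3 replicate 1 (0.235) and OE_L3 replicate 3 (0.464). With them the old-leaf difference was 2.80 (limma adjusted p = 0.0270). That p is not read as a call either, because the WT_L3 arrays entered the choice of CRSH2. With the leaf score as a covariate, an alternative chosen after seeing the data, the old-leaf difference was 0.83 (SE 0.18, adjusted p = 0.161). The score places each array between the leaves of the other genotype, so its origin and scale differ between OE and WT. A difference adjusted for it can carry that offset and is not read as a genotype difference.

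In the young leaf the signal averaged 1912 ± 262 in OE_L6 and 1843 ± 302 in WT_L6 (SD, n = 3 each), and the groups overlapped. The difference was 0.06 (SE 0.77, limma adjusted p = 0.998), where 0.102% of probe sets were called. The SE of the shared fit takes in the wide old leaves. With the L6 arrays alone the SE was 0.15 and the 95% interval ran from -0.29 to 0.41. The sign turned without OE_L6 replicate 2 (-0.05) or WT_L6 replicate 1 (-0.08). With the leaf score as a covariate the difference was 0.47 (SE 0.18, 95% interval 0.07 to 0.87, limma adjusted p = 0.407). As in the old leaf, that value can carry the offset of the score between genotypes, and no conclusion is drawn from it. The leaf difference in OE minus that in WT was -1.37 (SE 1.095), given with no test because it holds the WT leaf difference.

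The other CRSH genes beside CRSH2 did not share its pattern. CRSH1 (LOC4337888), a calcium-activated synthetase of the same kind, had a signal of 201, 230 and 184 in OE_L6, against 199, 235 and 211 in OE_L3, and of 207, 186 and 208 in WT_L6, against 182, 248 and 210 in WT_L3. All 4 groups overlapped. Its leaf difference was -0.06 in OE (SE 0.12, 95% interval -0.33 to 0.20, adjusted p = 0.689) and -0.07 in WT (adjusted p = 0.636). CRSH3 (LOC9270381), the third gene of this kind, lay between 31.1 and 44.3 on all 12 arrays, above 30.8% to 44.3% of the probe sets of an array, and its groups overlapped. In the fit without a filter its leaf difference was -0.03 in OE (95% interval -0.24 to 0.18) and -0.12 in WT (95% interval -0.33 to 0.09). The 3 genes are related, and whether their probes also bind each other's transcripts was not checked.

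**Figure D3:**
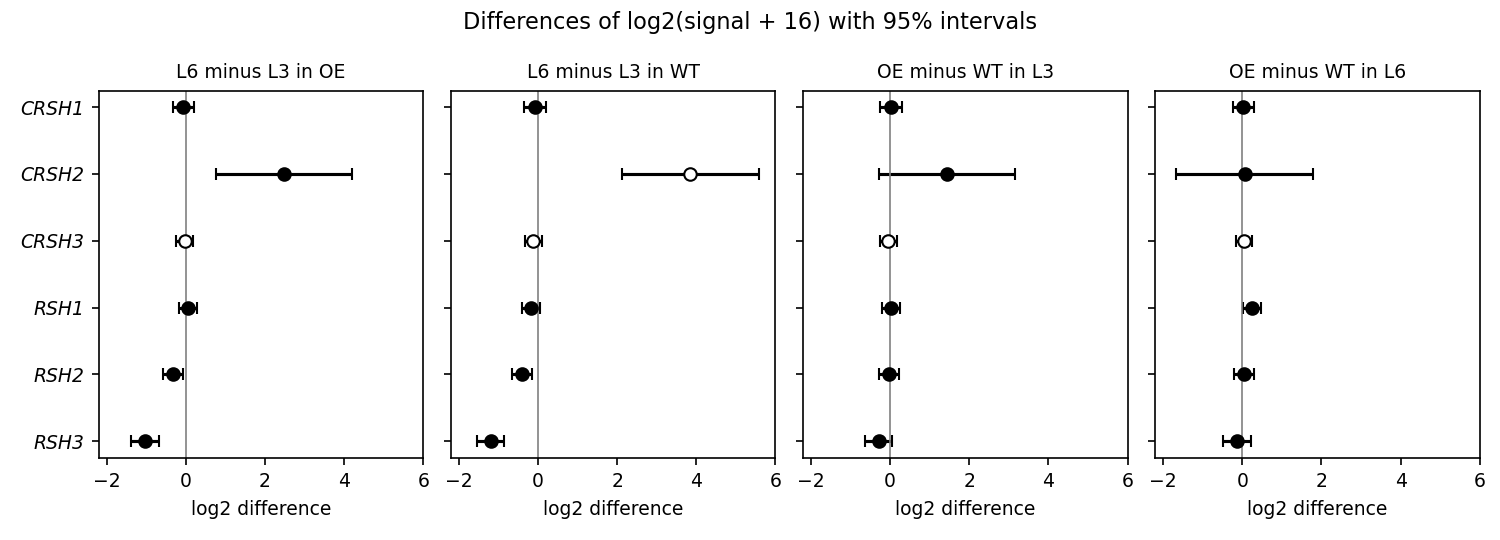
Difference of log2(signal + 16) (x axis) for the 6 genes (rows) in 4 comparisons (panels), with points for the estimate and bars for its 95% interval from limma. Open points are CRSH3, from the fit without a filter, and the WT leaf difference of CRSH2, which is a description. CRSH2 lies at 2.48 and 3.85 and RSH3 at -1.04 and -1.20 between the leaves, and every interval between OE and WT includes 0 except that of RSH1 in L6 (0.02 to 0.49).

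The protein-coding genes beside the CRSH genes on the chromosome differed in direction between the leaves of OE, where 42.1% of all probe sets were called. LOC4337889, between CRSH1 and CRSH2, fell in OE_L6, at 125 ± 23.2 against 167 ± 4.74 in OE_L3 (log2 -0.39, limma adjusted p = 0.0427). LOC4337892, beyond CRSH3, stayed too dim for the fit, at 22.2 on average in OE_L6 and 23.6 in OE_L3. LOC4337886, on the outer side of CRSH1, rose, at 77.8 ± 19.2 in OE_L6 and 26.5 ± 16.2 in OE_L3 (log2 1.21, adjusted p = 0.0317). Further out, LOC4337885, on the side of CRSH1, did not pass (log2 -0.07, adjusted p = 0.755). LOC9272304 fell (log2 -0.31, adjusted p = 0.0155) and LOC4337896 rose (log2 0.90, adjusted p = 0.00412), both on the side of CRSH3. In WT the leaves overlapped for LOC4337889 (162, 151 and 155 in L6, 145, 192 and 201 in L3). They also overlapped there for LOC4337886 (70.6, 70.4 and 37.3 in L6, 55.2, 17.1 and 11.4 in L3). LOC9272304 and LOC4337896 had the same direction in WT as in OE, without overlap.

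RSH3 (LOC4347182), whose Arabidopsis namesake makes ppGpp, fell in the young leaf of both genotypes. Its signal was 113, 97.4 and 104 in OE_L6, against 226, 232 and 240 in OE_L3. In WT_L6 it was 155, 97.6 and 104, against 239, 328 and 305 in WT_L3. Every young leaf lay below every old leaf of its genotype, as for 29.6% of all probe sets in OE and 28.4% in WT. The difference was -1.04 in OE (SE 0.16, 95% interval -1.39 to -0.69, limma adjusted p = 0.000863), or 2.05-fold, and -1.20 in WT (SE 0.16, adjusted p = 0.000363), or 2.29-fold. In WT 47.8% of probe sets were called, 23.9% as lower. Both calls held in all 16 alternatives run for each. L6 over L3 of the same plant was 0.502, 0.421 and 0.435 in OE and 0.648, 0.297 and 0.343 in WT. WT_L6 replicate 1 was the highest young leaf for RSH3 and the lowest for CRSH2.

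RSH2 (LOC4345756), of the same branch, fell by less. Its signal was 612, 466 and 533 in OE_L6, against 628, 698 and 702 in OE_L3, and 532, 470 and 557 in WT_L6, against 638, 770 and 666 in WT_L3. The groups did not overlap in either genotype, although L6 over L3 was 0.975 in OE replicate 1. The difference was -0.33 in OE (SE 0.12, limma adjusted p = 0.0444) and -0.40 in WT (SE 0.12, adjusted p = 0.0185). With the plant as a block, which pairs the leaves of a plant, neither passed (adjusted p = 0.122 in OE and 0.0691 in WT). The OE call was lost in 9 of 16 alternatives and the WT call in 3 of 16.

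RSH1 (LOC4332791), whose Arabidopsis namesake removes ppGpp, was level across the leaves. Its signal was 932, 801 and 866 in OE_L6, against 815, 776 and 912 in OE_L3, and 732, 642 and 801 in WT_L6, against 769, 875 and 824 in WT_L3. The difference between the leaves was 0.05 in OE (SE 0.10, 95% interval -0.18 to 0.28, limma adjusted p = 0.696) and -0.18 in WT (95% interval -0.41 to 0.05, adjusted p = 0.169). With array quality weights the WT difference was -0.32 and passed (adjusted p = 0.00366). Between genotypes RSH1 averaged 866 ± 65.3 in OE_L6 and 725 ± 79.9 in WT_L6 (SD, n = 3 each), a difference of 0.25 whose adjusted p was 0.627, and the groups just touched at 801.

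Between OE and WT, in the old leaf, the log2 difference was -0.29 for RSH3 (95% interval -0.64 to 0.06), -0.03 for RSH2, 0.02 for RSH1 and 0.02 for CRSH1. In the young leaf it was -0.13 for RSH3, 0.04 for RSH2 and 0.03 for CRSH1. None of the 5 members tested passed in L3 or in L6 (limma). At an unadjusted limma p under 0.05 there was 1, RSH1 in L6, where 2650 of the 34316 probe sets were under it, against 1326 in L3. The leaf difference in OE minus that in WT was 0.16 for RSH3, 0.07 for RSH2, 0.24 for RSH1 and 0.01 for CRSH1, none passing (adjusted p = 1.00 each), and 0.00874% of all probe sets were called there.

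The order of the 4 groups differed from gene to gene. For CRSH2 it was OE_L6, WT_L6, OE_L3 and WT_L3 from high to low, with overlap within each leaf. For RSH3 it was WT_L3, OE_L3, WT_L6 and OE_L6, and for RSH2 it was WT_L3, OE_L3, OE_L6 and WT_L6, each with overlap within a leaf and none between the leaves. For CRSH1, CRSH3 and RSH1 neighbouring groups in the order all overlapped.

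Genes whose pattern was most like that of CRSH2 were sought among 2170 named genes. Likeness was the root mean square difference over the 12 arrays of log2(signal + 16) values centred on their own mean, where 0 is identical, and the median over 34315 probe sets was 1.88. The nearest were LAC4 and LAC7, members of the laccase family, some of which polymerise lignin (0.374 and 0.376). CESA9 and CESA4, cellulose synthase subunits of secondary walls, followed (0.452 and 0.484). CIN2, a cell-wall invertase also known as GIF1, stood at 0.487 and KRP6, an inhibitor of cyclin-dependent kinases, at 0.492. Many unnamed genes were as near, since KRP6 ranked 62 among all probe sets. The list depended on the pseudocount, with 3 of the 6 genes kept at a pseudocount of 1 and 4 at 64. By the same measure RSH3 stood at 2.43, RSH2 at 2.06, RSH1 at 1.93 and CRSH1 at 1.93.

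The low old leaves that these genes share with CRSH2 follow from how they were chosen, on these same arrays. LAC4 and CESA4 are given as examples. LAC4 was at 583, 587 and 607 in OE_L6, against 136, 194 and 16.4 in OE_L3, and at 770, 722 and 801 in WT_L6, against 300.0, 14.6 and 10.7 in WT_L3. CESA4 was at 1851, 1448 and 1601 in OE_L6, against 560.0, 593 and 66.9 in OE_L3, and at 1996, 1744 and 2024 in WT_L6, against 1211, 49.8 and 53.6 in WT_L3. The intermediate old leaves were ordered otherwise. CRSH2 was lower in WT_L3 replicate 1 (449) than in OE_L3 replicates 1 and 2 (488 and 674), while LAC4 and CESA4 were higher there. The likeness rests on 12 arrays in which the leaf sets most of the pattern.

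**Figure D4:**
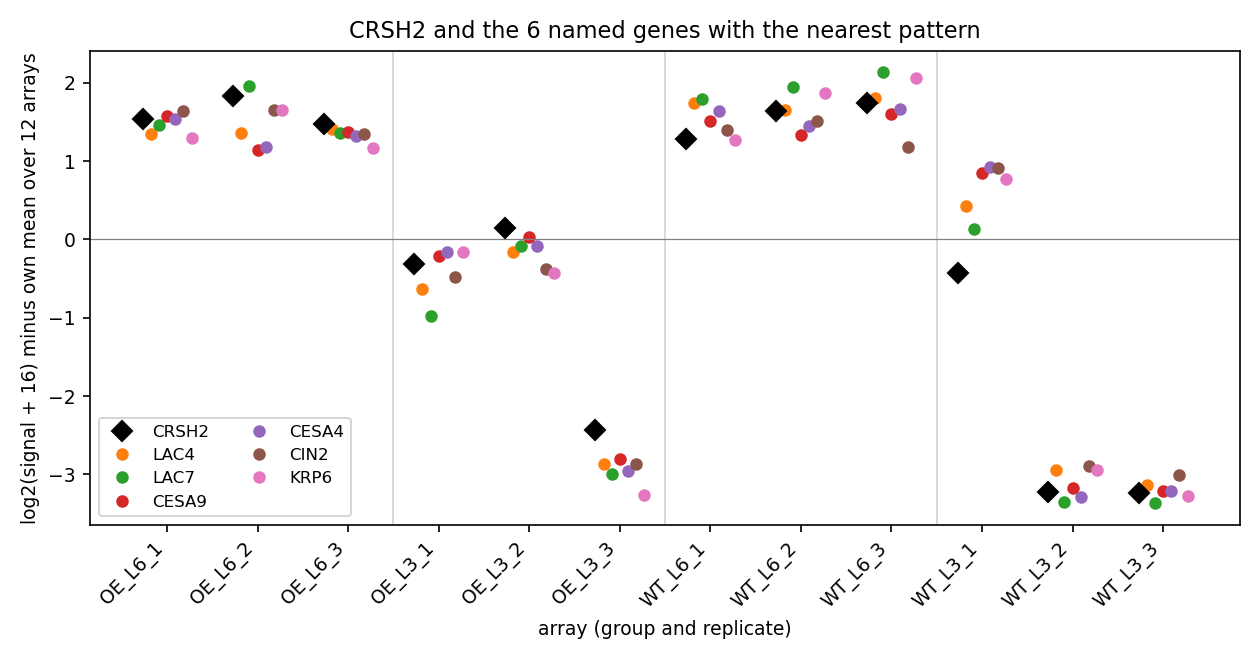
Centred log2(signal + 16) (y axis) of CRSH2 (black diamonds) and the 6 named genes nearest to it (coloured circles) on each of the 12 arrays (x axis). All 7 genes lie above their mean on the L6 arrays and lowest on OE_L3 replicate 3 and WT_L3 replicates 2 and 3.

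Few genes for the processes on which ppGpp acts could be found by name, too few to set their calls against the share of all probe sets. That share was 18.9% higher and 23.2% lower in OE_L6 than in OE_L3, and 23.9% each way in WT. Of 3 genes for guanine nucleotide supply, 1 rose in OE_L6: V2, the guanylate kinase of plastids and mitochondria, whose plastid activity ppGpp inhibits, was at 462 ± 60.6 against 264 ± 14.4 in OE_L3 (log2 0.76, limma adjusted p = 0.000784). It also rose in WT_L6, at 416 ± 37.9 against 279 ± 27.3 in WT_L3 (log2 0.55, adjusted p = 0.00363). The cytosolic guanylate kinase GK1 (log2 0.37 in OE) and the nucleoside diphosphate kinase NDPK1 (log2 -0.08) did not pass. Of 3 genes matched to ribosomal proteins of the plastid list, AL1 and ASL1 rose in OE_L6, by 0.75 (adjusted p = 0.00242) and 0.85 (adjusted p = 0.00763), and both rose in WT_L6. RPS20, whose place in the cell was not checked, did not pass in OE (log2 -0.16) and fell in WT_L6 (log2 -0.21, adjusted p = 0.0368). The plastid transcription gene WSL3 was at 1015 ± 189 in OE_L6 and 727 ± 73.2 in OE_L3 (log2 0.46, adjusted p = 0.0481). It did not pass in WT (log2 0.19, adjusted p = 0.361), and the sigma factor gene SIG2B did not pass in either genotype (log2 -0.32 in OE and -0.65 in WT). The median leaf difference in OE was 0.37 for the nucleotide list, 0.75 for the translation list and 0.07 for the transcription list, against 0.00 over all probe sets. In WT it was 0.41 for the nucleotide list, 0.49 for the translation list and -0.23 for the transcription list, against 0.02. None of these 8 genes passed between OE and WT.

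Calmodulins and calmodulin-like proteins (CML) are calcium sensors with EF-hands, like those of the CRSH proteins. Of 26 genes found, 22 entered the fit. In OE, 2 were higher and 10 lower in L6 than in L3, and in WT 4 were higher and 7 lower. Of all probe sets, 18.9% were higher and 23.2% lower in OE, and 23.9% each way in WT. The median leaf difference was -0.29 in OE and -0.11 in WT, against 0.00 and 0.02 over all probe sets. CML4 fell, at 99.4 ± 21.9 in OE_L6 and 900.2 ± 304 in OE_L3 (log2 -2.94, limma adjusted p = 0.000108). CML8 was at 520 ± 258 and 1541 ± 129 (log2 -1.68, adjusted p = 0.00387), and CML20 at 34.7 ± 2.72 and 79.8 ± 12.5 (log2 -0.91, adjusted p = 0.000523). CML5 rose, at 50.5 ± 6.81 and 31.6 ± 3.597 (log2 0.48, adjusted p = 0.00513). None of the 22 passed between OE and WT in either leaf.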

How the data were processed

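Biotin-labelled cRNA from leaf RNA was hybridised to Affymetrix rice arrays (per the labels' protocols). What was deposited is a linear signal intensity for each probe set. How the authors summarized and scaled it is not stated in these sources. Array medians spanned 0.118 on the log2 scale, and values were used without rescaling.

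Values were transformed to log2(signal + 16). Of 57381 probe sets, 34316 remained after removing 187 controls and those below the 40th percentile of the mean. A limma 3.58.1 model in R 4.3.3 (lmFit, eBayes with a trend) covered all 4 groups, with two-sided tests and Benjamini-Hochberg adjustment over these probe sets. Sample titles gave the groups. Replicates are separate plants, which in OE are also separate lines, and their number limits the precision. Gene names came from the platform annotation (22436 probe sets with a single gene, 95 with several) and from the ASM3414082v1 gene table. Lists were matched by symbol or synonym with the brightest probe set per gene, and the 4 members with the largest statistic between the OE leaves are named, with all members of lists of 3 or fewer. The 6 named genes most like CRSH2 are given. Members and lists were chosen with earlier results of these data known. Alternatives were another pseudocount, filter or normalization, no trend, separate groups, blocks, array weights and leaving out each array.

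The labels pair the leaves of a plant. Deviations from group means correlated between its leaves at 0.103, 0.144 and 0.199 in OE, and at -0.244, -0.362 and -0.0509 in WT. The fit was tested on simulated data. Figures were drawn with matplotlib 3.10.9.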

Additional observations from a re-analysis of the deposited data

How the results depend on the processing

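The leaf difference of CRSH2 in OE was 1.70 to 2.99 with one array left out and 1.83 to 2.56 under the other alternatives, with adjusted p from 0.0127 to 0.101. The 4 losses, each with an array left out, stand beside the result. With the plant as a replicate block it was 2.48 (adjusted p = 0.0432). In WT its description ran from 3.32 to 4.79, and OE minus WT of the leaf differences from -2.86 to -0.87. CRSH2 in OE_L3 minus WT_L3 was 0.92 to 2.36 with one array left out and 2.80 with array quality weights (adjusted p = 0.0270, not read as a call). In L6 it was -0.081 to 0.15 with one array left out, -0.055 with the weights and 0.47 with the leaf score as a covariate (adjusted p = 0.407). The leaf score has another origin and scale in OE than in WT, so genotype values adjusted for it are not read as results. With the replicate number as a block, which OE and WT share only as a number, the L3 value was 1.43 and still did not pass.

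Array weights turned RSH1 in L3 to -0.058 and RSH3 in L6 to 0.041, and the leaf score as a covariate, chosen after seeing the data, turned RSH2 in L3 to 0.011. Leaving out one array gave, for CRSH1, -0.14 to 0.0043 between leaves in OE, -0.18 to 0.032 in WT, -0.082 to 0.13 for OE minus WT in L3, -0.051 to 0.098 in L6 and -0.097 to 0.11 for the difference of leaf differences. It gave -0.046 to 0.068 for RSH1 in L3, -0.084 to 0.0496 for RSH2 in L3, -0.054 to 0.14 for RSH2 in L6, -0.024 to 0.17 for its difference of leaf differences and -0.25 to 0.048 for RSH3 in L6. None of these passed. The RSH2 leaf calls lost with the plant block stand beside that result.

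Probe sets called between the leaves with one array left out numbered 8902 to 12562 in OE, lowest without OE_L3 replicate 3, and 10305 to 18399 in WT, with 10665 and 10305 without WT_L3 replicates 2 and 3. Between genotypes in L3 they numbered 22 to 48 with one array left out, 62 with no filter, 25 with the 60th percentile filter, 12 with only these groups fitted, 196 with array weights and 84 with the leaf score. In L6 they were 20 to 45, 22 with the 60th percentile filter, 268 with array weights and 66 with the leaf score. For the difference of leaf differences, against 3, they were 0 to 7 with one array left out, 0 at pseudocount 1, 6 at pseudocount 64, 7 with no filter, 0 with the plant as a fixed replicate block, 1 as a random block and 23 with array weights (844 at an unadjusted p under 0.05). The cause was not tested. Signals near the middle of an array, such as CRSH2 in WT_L3 replicates 2 and 3, limit how large a fold can be read.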
